A study of Drosophila melanogaster with 46 samples.

Results

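Whole XX flies carrying 2 mutant copies of doublesex were compared with whole males of the same species, Drosophila melanogaster. The comparison used every array that carried this pair of RNAs, which was 4 of the 46 2-colour arrays of the series. Arrays 13a and 13b had male RNA in channel 1, and arrays 14a and 14b had XX;dsx RNA in channel 1. The mutants were of genotype +/+;dsx[M+R45]/dsx[swe], and the labels do not state which products these alleles make. The males were y[1]w[67c], although a second label field of arrays 13a and 13b writes y[1]w[1]. Genotype at the yellow and white genes and the rest of the genetic background therefore differ along with doublesex and with the sex chromosomes, and these cannot be told apart here. All flies were adults of 3 to 5 days after eclosion, raised at 25 C. Males were also compared with germline-less tudor males, whose tudor alleles are not given here. The title of array 22 writes these males as yw, and that of array 23 names no strain. Titles of the female, testis and male carcass arrays used here name no strain either. The XX and XY transformer 2 mutants used for comparison carried tra2[B]/TRIX, the XX flies with w[67c]/w[67c] on their X chromosomes and the XY flies with w[67c]/BsY.

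The gene doublesex stands at the end of the pathway that sets somatic sex in flies. Its transcript is spliced into a female and a male form, which encode transcription factors that share their DNA-binding part. The female form activates the yolk protein genes in the fat body, and the male form represses them. The gonads, the genital tract and sex-specific pigmentation all depend on it. The male germline is a further source of sex-biased transcripts, since spermatocytes and spermatids make many RNAs found in no other cell.

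Log2 ratios below are males over XX;dsx mutants, so a positive value is higher in males and a negative value is higher in the mutants. This direction is likely and not stated: read as channel 1 over channel 2, the ratios of Yp1, Yp2 and Yp3 favoured females over males and those of dj, Mst87F and betaTub85D favoured testis over ovary, on all 4 arrays of either comparison. Values are relative to each array's median. The 4 arrays measured between 11185 and 12746 of 15732 elements, an element being a pair of duplicate spots, and duplicate spots correlated at 0.915 to 0.973 within an array. The turned log ratios of repeats with the same dye orientation correlated across elements at 0.901 for 13a and 13b and at 0.899 for 14a and 14b, and those of arrays with swapped dyes at 0.715 to 0.739. Elements are not independent replicates. The labels do not say whether repeats came from separate extracts, so p-values measure the spread between arrays, which may be technical.

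Many transcripts differed between XX;dsx mutants and males, and the large differences were mostly on the male side. Of 12633 elements tested, 1468 (11.6%) were called higher in XX;dsx mutants and 1913 (15.1%) higher in males, by limma at a Benjamini-Hochberg adjusted p below 0.05. At least 2-fold differences were called for 94 elements (0.744%) higher in the mutants and 510 (4.04%) higher in males. With 1 element standing for each of 9050 genes, 1114 genes (12.3%) were higher in the mutants and 1561 (17.2%) in males. Of the 3381 called elements, 3245 had 1 sign on every array that measured them. Without array 14a, 852 elements were called higher in the mutants.

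The gene furthest towards the mutants was tobi, which encodes an alpha-glucosidase of the fat body. Its log2 ratios were -3.82, -3.04, -3.87 and -2.77 on arrays 13a, 13b, 14a and 14b. All 4 arrays put it higher in the mutants, by 10.4-fold in the fit (log2 ratio -3.37 ± 0.17 SE, n = 4 arrays, limma adjusted p = 2.06e-12). Other genes on this side were the cuticle genes Vajk2, Vajk3 and Vajk4 and the cuticle protein gene Cpr92F, with log2 ratios of -2.38 ± 0.23, -2.29 ± 0.20, -1.82 ± 0.16 and -2.35 ± 0.18. CG7214 and CG7203 led the genes without a name, at -3.05 ± 0.26 and -2.29 ± 0.16. The neuropeptide precursor gene Nplp3 was at -1.76 ± 0.16, and CG18179 at -1.76 ± 0.28.

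At the male end, w-cup, expressed late in spermatogenesis, read 2.84, 2.42, 2.43 and 2.70 on arrays 13a, 13b, 14a and 14b. It was higher in males on every array, by 6.05-fold in the fit (log2 ratio 2.60 ± 0.21 SE, n = 4, limma adjusted p = 7.1e-10). The other named genes of this group were Mst33A, Mst87F, Gpdh3, dj, S-Lap7, Mst77F, robl62A, Pen, Ppi1, djl and Mst98Cb, with log2 ratios between 2.11 and 2.29. CG12699, CG12860 and CG12861 reached 2.65, 2.58 and 2.56. These 30 leading genes, 15 a side, were chosen among called genes that lay on 1 side of zero on all 4 arrays.

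**Figure D1:**
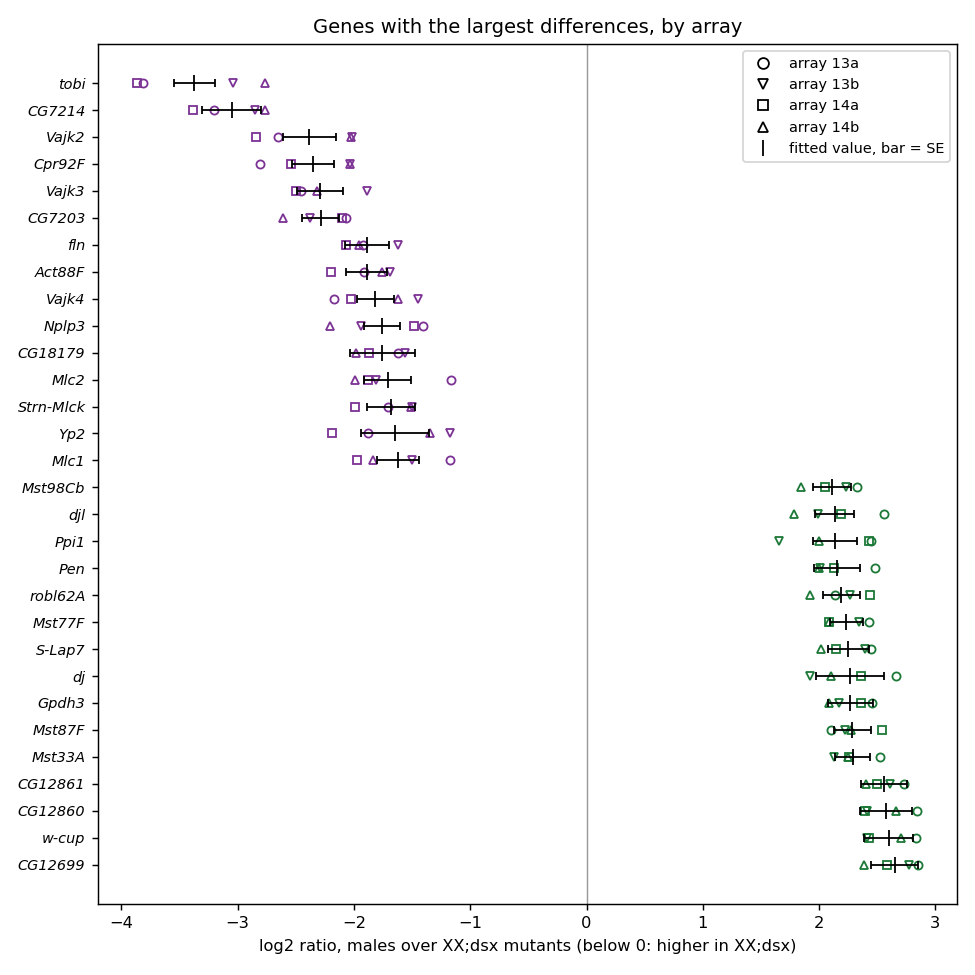
Log2 ratio of males over XX;dsx mutants (horizontal axis) for the 15 leading genes on each side, with 1 open symbol per array, coloured purple for genes higher in XX;dsx and green for genes higher in males, and the fitted value with its SE in black. The symbols of tobi lie between -3.87 and -2.77 and those of w-cup between 2.42 and 2.84. By the rule that chose them, no gene shown has arrays on both sides of zero.

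The doublesex transcript itself did not pass the test. Its log2 ratios were 0.13, 0.11, -0.04 and 0.04 on arrays 13a, 13b, 14a and 14b, which lie on both sides of zero. The fitted value was 0.06 ± 0.06 (SE, n = 4, limma adjusted p = 0.491). Where the dsx element lies relative to the mutations is not known here, so its level does not check the genotype. Of 8 tested sex determination genes, 0 were higher in the mutants and 1 in males. That gene was ix, which encodes a partner of the female doublesex protein, at 0.24 ± 0.08, a call that was lost without array 13a, 14a or 14b. Over all genes, 17.2% were higher in males. The sex-specifically spliced gene fru was at 0.17 ± 0.14 and tra2 at 0.11 ± 0.12, a value that rests on 2 arrays. None of 5 dosage compensation genes passed in either direction, with msl-2, which encodes the male-limiting subunit of that complex, at 0.29 ± 0.12 (limma adjusted p = 0.060).

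Nearly all measured transcripts of spermatids and sperm were higher in males. Of 33 members tested, 0 were higher in the mutants and 29 in males, with a median log2 ratio of 1.47, against 12.3% and 17.2% of all genes and a median of -0.0027 over them. The median of the list was 1.53, 1.40, 1.77 and 1.22 on arrays 13a, 13b, 14a and 14b. The protamine-like gene Mst77F, the axonemal tubulin gene betaTub85D and the sperm tail gene dj were at 2.23 ± 0.14, 1.93 ± 0.13 and 2.26 ± 0.29. The members that did not pass were Mst85C, nes, oys and fzo. In whole flies, fewer cells of a type and less RNA per cell cannot be told apart.

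Among genes that act earlier in the male germline, several were also higher in males. Of 9 tested members of the meiosis and testis transcription list, 0 were higher in the mutants and 4 in males, with a median of 0.22, against 17.2% of all genes higher in males. These were bol, a translational regulator of meiosis, at 1.03 ± 0.20, the meiotic phosphatase gene twe at 0.75 ± 0.17, rux at 0.44 ± 0.11 and mip40 at 0.20 ± 0.06. Without array 14a the calls of rux and mip40 were lost, which left 2. A second element of bol, on 4 arrays, was at 0.07 ± 0.06 and did not pass.

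The same elements were measured in dissected testis against the male carcass left after dissection, on 2 separate arrays. Of 1406 elements at least 2-fold higher in testis, 0.925% were higher in the mutants and 89.8% in males, with a median log2 ratio of 0.81. Of 884 elements at least 2-fold higher in male carcass, 42.5% were higher in the mutants and 3.17% in males, with a median of -0.28. Of all 3459 elements called higher in male carcass, 30.3% were higher in the mutants and 1.97% in males, and of all 3192 called higher in testis, 1% and 53.5%. Without array 14a, 19% of the carcass class were higher in the mutants, and without 13a 1.15% were higher in males. The testis sample also read high for accessory gland genes, of which 24 of 25 were called higher in testis than in male carcass (median log2 ratio 0.98). Their part in these classes was not tested. Of 5673 elements called in neither direction there, 6.43% were higher in the mutants and 2.33% in males. Across 12324 elements, which share arrays and fit within each comparison, the log ratios correlated at r = 0.812 (Spearman rho 0.713). Calls in that comparison were common, at 26.9% of elements higher in male carcass and 26% higher in testis.

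**Figure D2:**
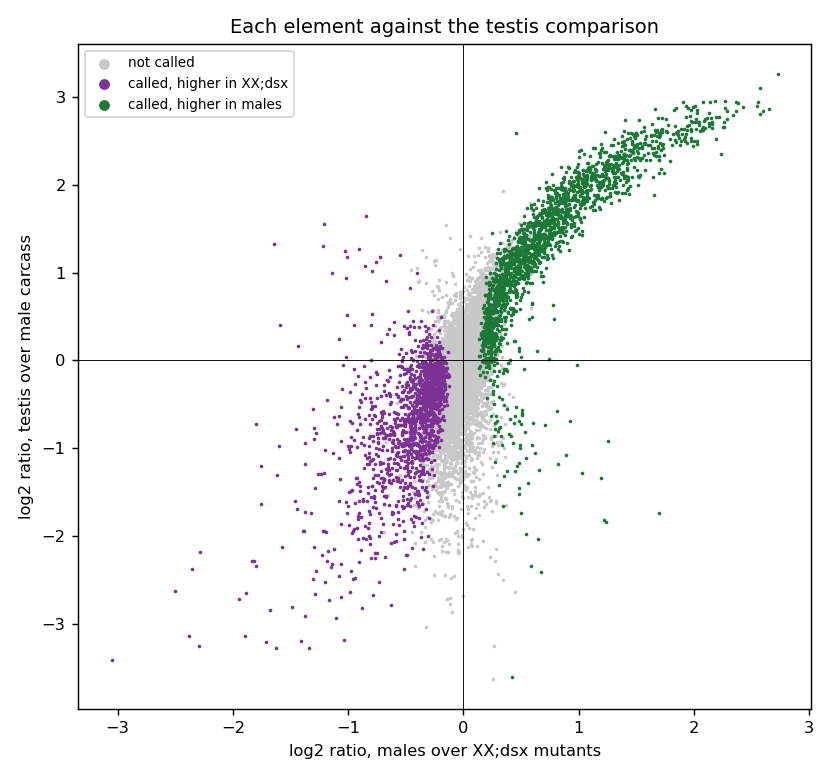
Each point is an element, with its log2 ratio of males over XX;dsx mutants (horizontal) against its log2 ratio of testis over male carcass (vertical), coloured by its call in males against XX;dsx. Points at least 2-fold higher in testis lie mostly on the male side, 89.8% of them called, whereas the purple points higher in XX;dsx lie mostly below zero on the vertical axis.

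Several cellular machines have testis-specific paralogs beside widely expressed ones, and some paralogs lay on the other side of zero from their counterparts. Of 10 testis proteasome subunits tested, 0 were higher in the mutants and 8 in males (median 0.44), led by Prosbeta4R2 at 1.38 ± 0.13, and without array 13a 5 were higher in males. In the respiratory chain, COX4L read 1.35, 1.36, 1.61 and 1.31 on arrays 13a, 13b, 14a and 14b, whereas its widely expressed counterpart COX4 read -0.36, -0.67, -0.80 and -0.67. The arrays of COX4L and COX4 do not overlap, with COX4L at 1.41 ± 0.13 and COX4 at -0.62 ± 0.17. COX7AL was at 1.32 ± 0.10 and COX7A at -0.60 ± 0.14. Over all genes, 12.3% were higher in the mutants and 17.2% in males. Among 36 ribosomal protein genes tested, 0 were higher in the mutants (11 with the 4 arrays fitted alone) and 3 in males (median -0.16). All 3 are paralogs of more widely expressed genes: RpL10Aa at 1.71 ± 0.12, RpS19b at 0.45 ± 0.15 and RpL22-like at 0.36 ± 0.12. The call of RpS19b was lost when any 1 array was left out, and that of RpL22-like without 13a, 13b or 14a. Of 29 vacuolar ATPase genes, 6 were higher in the mutants (3 without array 14a, 10 with the 4 arrays fitted alone) and 5 in males, a male share like the 17.2% of all genes. The members higher in males were led by Vha36-2 at 1.15 ± 0.15 and Vha68-3 at 0.84 ± 0.11. Cross-hybridisation between paralogs on the arrays was not tested.

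Mitochondrial energy genes had calls on both sides. Of 69 tested, 31 were higher in XX;dsx and 11 in males, with a median of -0.35, against 12.3% and 17.2% of all genes. Fewer were higher in the mutants without array 14a (20) or 14b (19), and 7 were higher in males without 14a. The ATP synthase genes ATPsynC and blw were at -1.40 ± 0.14 and -1.30 ± 0.14. The members higher in males included COX4L, COX7AL and SdhCL, each over 2-fold.

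Genes known from the female germline had calls on both sides as well. Of 31 tested members of the oogenesis and early germline list, 2 were higher in the mutants (1 without array 14a or 14b) and 9 in males, with a median of 0.15, against 12.3% and 17.2% of all genes. The RNA localisation gene exu, which also acts in spermatogenesis, read 2.50, 1.91, 2.03 and 1.68 on arrays 13a, 13b, 14a and 14b and was higher in males by 4.08-fold (log2 ratio 2.03 ± 0.17, limma adjusted p = 7.34e-11). A second element of exu was at 0.66 ± 0.08 and also passed. BicC was at 1.03 ± 0.21, cup at 0.71 ± 0.12 and nanos at 0.59 ± 0.09, whereas the piRNA pathway gene aub was at -0.35 ± 0.10. Of 10 eggshell genes, 1 was higher in the mutants and 0 in males. That gene was the peroxidase gene Pxd, at -0.73 ± 0.16. Of 22 genes of DNA replication and the cell cycle, 0 were higher in the mutants and 3 in males, led by Orc3 at 0.95 ± 0.16. The eggshell share higher in the mutants and the replication share higher in males lie near those over all genes. In the other direction neither list had a call.

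Transcripts of the male accessory organs were present in the mutants at levels near or above those of males. Of 26 accessory gland genes tested, 8 were higher in XX;dsx mutants and 0 in males (median -0.22), against 12.3% and 17.2% of all genes. Acp76A read -0.88, -1.01, -1.66 and -1.33 on arrays 13a, 13b, 14a and 14b, all on the mutant side, and the fit gave -1.22 ± 0.18 (limma adjusted p = 5.33e-06). The seminal serpin genes Spn28F, Spn77Bb and Spn38F were at -1.21 ± 0.19, -1.01 ± 0.16 and -0.91 ± 0.13. The sex peptide gene SP, whose product changes female behaviour after mating, did not pass, and its arrays lay at -0.23 and -0.14 in one dye orientation and at 0.43 and 0.33 in the other. Of 5 ejaculatory duct and bulb genes, 4 were higher in the mutants and 0 in males, namely Gld, Ebp, EbpII and Obp56g, at -1.01 ± 0.16, -0.92 ± 0.19, -0.81 ± 0.18 and -0.62 ± 0.10. Males were also compared with germline-less tudor males, on 2 other arrays. Log2 ratios of males over tudor males were -1.36 ± 0.27 for Acp76A, -1.19 ± 0.29 for Spn28F and -0.785 ± 0.195 for Spn38F, all called. Spn77Bb (-0.625 ± 0.24) did not pass there. Of 26 accessory gland genes, 4 were called higher in tudor males there and 0 in males, with a median of -0.15. Of 5 ejaculatory duct and bulb genes, 0 were called in either direction, with a median of -0.385. The share of all genes called in that comparison is not given here.

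Yolk protein transcripts, made in the female fat body and ovary, were also higher in the mutants than in males. Yp2 read -1.88, -1.18, -2.19 and -1.35 on arrays 13a, 13b, 14a and 14b, and was 3.13-fold higher in the mutants (log2 ratio -1.65 ± 0.29, limma adjusted p = 4.47e-05). Yp1 was at -1.14 ± 0.27. Yp3 was at -0.71 ± 0.27, with a limma adjusted p of 0.048 that was lost when any 1 of the 4 arrays was left out, and a second Yp3 element at -0.28 ± 0.25 did not pass. Yp2 and Yp1 were also called lower in males than in germline-less tudor males. Their log2 ratios of males over tudor males were -1.725 ± 0.43 and -1.58 ± 0.40, and Yp3 (-1.04 ± 0.40) did not pass there.

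Setting XX;dsx mutants against females was possible only through males, by adding the fitted log ratios of females over males and of males over XX;dsx. Of 12059 elements, 2482 (20.6%) were higher in the mutants and 2482 (20.6%) higher in females, and with 1 element a gene 22% of genes were called in each direction. With arrays scaled to 1 spread, 1397 elements were higher in the mutants and 1484 in females. All 25 accessory gland genes with a value and all 5 ejaculatory duct and bulb genes were higher in the mutants than in females, with median log2 ratios of females over mutants of -2.18 and -3.11. All 3 yolk protein genes were lower in the mutants than in females, by a log2 ratio of females over mutants of 2.37 ± 0.38 for Yp1, 2.37 ± 0.41 for Yp2 and 2.12 ± 0.38 for Yp3. Of 9 eggshell genes, 0 were higher in the mutants and 8 in females. Of 33 spermatid and sperm genes, 13 were higher in the mutants and 1 in females, with a median of -0.46.

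Among genes of the fat body and oenocytes that differ between the sexes in the soma, most were higher in the mutants. Of 12 tested, 7 were higher in the mutants and 2 in males (median -0.44), against 12.3% and 17.2% of all genes. Without array 13a, 13b or 14a, 1 was higher in males. Beside tobi, those higher in the mutants included fit at -1.39 ± 0.18, Fbp1 at -1.24 ± 0.18 and the lipoprotein gene apolpp at -1.23 ± 0.11. The odorant binding protein gene Obp99a and the oenocyte gene Cyp4g1 were higher in males, at 0.45 ± 0.11 and 0.42 ± 0.16, although Cyp4g1 read -0.12 on array 14b. The male-biased P450 gene Cyp4d21 was at -0.52 ± 0.14. None of 5 genes of the female sperm storage organs passed in either direction.

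Muscle transcripts were higher in the mutants. Of 18 tested, 15 were higher in XX;dsx mutants and 0 in males, with a median of -1.15, against 12.3% and 17.2% of all genes. The flight muscle actin gene Act88F read -1.92, -1.69, -2.20 and -1.76 on arrays 13a, 13b, 14a and 14b, with a fitted value of -1.89 ± 0.18 (limma adjusted p = 2.06e-10). The flight muscle gene fln and the myosin light chain genes Mlc2 and Mlc1 were at -1.89 ± 0.19, -1.71 ± 0.20 and -1.62 ± 0.18. The giant sarcomeric proteins' genes sls and bt did not pass, at -0.25 ± 0.16 and -0.07 ± 0.12. Spermatid and sperm transcripts moved the opposite way on the same arrays, and their part in these values was not tested.

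Digestive, cuticle and immune genes included many that were higher in the mutants and few that were higher in males. Of 39 digestive enzyme genes, 20 were higher in the mutants and 1 in males (median -0.50), against 12.3% and 17.2% of all genes. Without array 14a 12 were higher in the mutants and without 14b 13, and without 13a or 13b 0 were higher in males. Examples were the trypsin gene epsilonTry at -1.28 ± 0.26 and the protease gene Jon66Cii at -0.91 ± 0.21. Of 71 cuticle protein genes, 21 were higher in the mutants and 3 in males, or 1 without array 14a (median -0.11), including the adult cuticle gene Acp65Aa at -1.26 ± 0.17 and Cpr100A at -1.21 ± 0.13. Of 14 immune genes, 6 were higher in the mutants and 0 in males (median -0.23), led by the lysozyme genes LysE, LysX and LysS at -1.45 ± 0.21, -1.37 ± 0.24 and -1.20 ± 0.23. Lysozymes of this cluster are known as digestive enzymes of the gut.

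**Figure D3:**
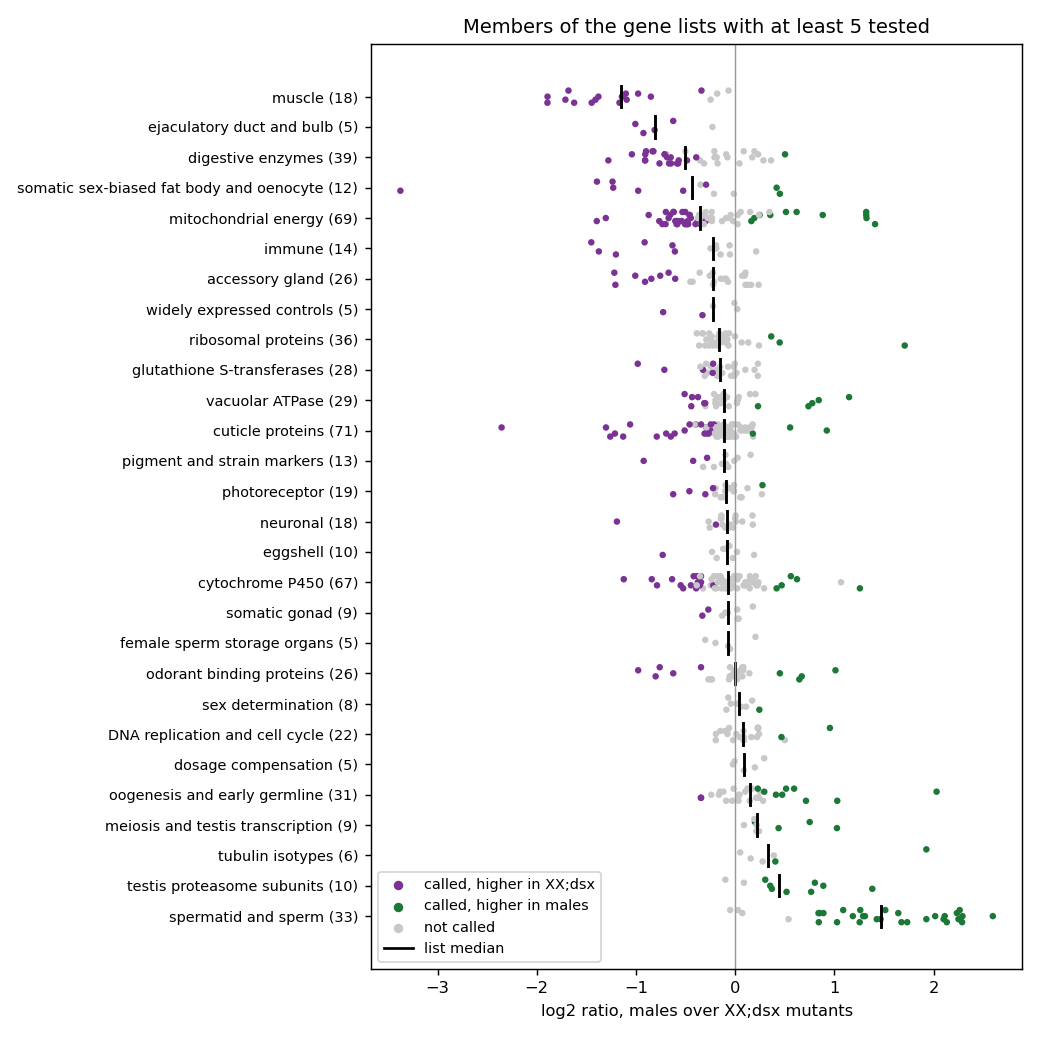
Log2 ratio of males over XX;dsx mutants (horizontal axis) of each tested gene in the 28 lists with at least 5 tested members, whose number stands in brackets, with list medians as black bars. Purple points were called higher in XX;dsx and green points higher in males, and the list medians run from -1.15 for muscle to 1.47 for spermatid and sperm.

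Other lists had calls on one or both sides, against the 12.3% and 17.2% over all genes. Of 67 cytochrome P450 genes, 15 were higher in the mutants and 5 in males, with Cyp28d1 at -1.12 ± 0.14 and the detoxification gene Cyp6a2 at 1.26 ± 0.20. Of 28 glutathione S-transferase genes, 5 were higher in the mutants and 0 in males, led by GstE1 at -0.98 ± 0.09. Of 26 odorant binding protein genes, 5 were higher in the mutants and 4 in males. Of 19 photoreceptor genes, 4 were higher in the mutants and 1 in males, and of 18 neuronal genes 2 and 0. The largest neuronal value was that of ple, tyrosine hydroxylase, at -1.19 ± 0.14, an enzyme that also serves cuticle hardening. Of 13 pigment genes, 3 were higher in the mutants and 0 in males, with e, which acts in cuticle pigmentation, at -0.92 ± 0.13. Of 9 somatic gonad genes, 2 were higher in the mutants (Egfr and esg) and 0 in males, with 1 higher in the mutants without array 13a or 14a and 0 without 14b. Of 6 tubulin genes, 0 were higher in the mutants and 2 in males. Of 5 widely expressed control genes, 2 were higher in the mutants and 0 in males, with Gapdh1 at -0.73 ± 0.13. Without array 14a the counts higher in the mutants were 3 for odorant binding proteins, 2 for glutathione S-transferases, and 1 each for photoreceptor, neuronal, pigment and control genes. The tubulin count in males was 1 without 13a, and the single photoreceptor call in males was lost without any 1 of the 4 arrays.

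XY and XX flies mutant for transformer 2, which acts upstream of doublesex, offered a second comparison of XY with XX flies on other arrays. Of 10876 elements with both log ratios, 285 (2.62%) were lower and 110 (1.01%) higher in males over XX;dsx than in XY over XX tra2, by a limma contrast of both. These counts depend on the settings. They were 87 lower and 37 higher without a dye coefficient, 117 and 47 with repeats averaged, and 473 and 171 with arrays scaled to 1 spread. Without array 13a they were 162 and 63, and without 14a 184 were lower. In the tra2 comparison array 15b stood apart, with its turned log ratios correlating at 0.569 with 15a, 0.0637 with 16a and 0.176 with 16b. The other pairs of its arrays correlated at 0.652 to 0.918. Without 15b, 225 elements were lower and 114 higher. Genes high in males here were mostly high in XY tra2 flies too. Of 1826 elements called higher in males, 77.5% were called higher in XY tra2 flies, and the contrast differed for 76. Among the 1408 called higher in XX;dsx mutants, 15.4% were called higher in XX tra2 flies, and the contrast differed for 254. That share was 17.2% without array 15b, 9.18% without 15a, 10.1% without 16a and 9.01% without 16b. The background calls in XY against XX tra2 were 5.19% higher in XX and 15.3% higher in XY flies.

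Muscle and cuticle genes were among those that differed. The contrast was lower in males over XX;dsx for 11 of 18 muscle genes and higher for 0, and lower for 11 of 59 cuticle protein genes and higher for 1, against 2.75% and 0.994% of genes tested. Without array 15b the contrast was lower for 11 muscle and 13 of 57 cuticle protein genes. For Act88F the log2 ratio was -1.89 in males over XX;dsx and -0.39 in XY over XX tra2, and for tobi it was -3.37 and -0.56. Both sides of the tra2 comparison are tra2 mutants, whereas here only the XX;dsx side is mutant for a sex determination gene. The part of this design difference in the contrasts was not tested. Females over XX tra2 mutants, on other arrays, gave -2.13 ± 0.18 for Act88F and -3.97 ± 0.17 for tobi. In males over germline-less tudor males these genes were at -0.91 ± 0.26 and -2.97 ± 0.26. Spermatid and sperm genes differed for 1 of 33, which was Mst77F.

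Photoreceptor genes differed the other way, with 8 of 16 higher in males over XX;dsx than in XY over XX tra2 and 0 lower, and 9 of 16 without array 15b. The arrestin gene Arr2 read 0.62, 0.38, -0.03 and 0.10 on arrays 13a, 13b, 14a and 14b and did not pass in males against XX;dsx (0.27 ± 0.21), while XY over XX tra2 gave -1.89 ± 0.21. The difference was 2.16 ± 0.29 (limma adjusted p = 1.8e-05). Arr1 gave -0.12 ± 0.15 and -2.04 ± 0.15. The XY tra2 flies carried a Y chromosome marked with Bar of Stone, a dominant mutation that narrows the eye. Its part in the photoreceptor values was not tested.

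**Figure D4:**
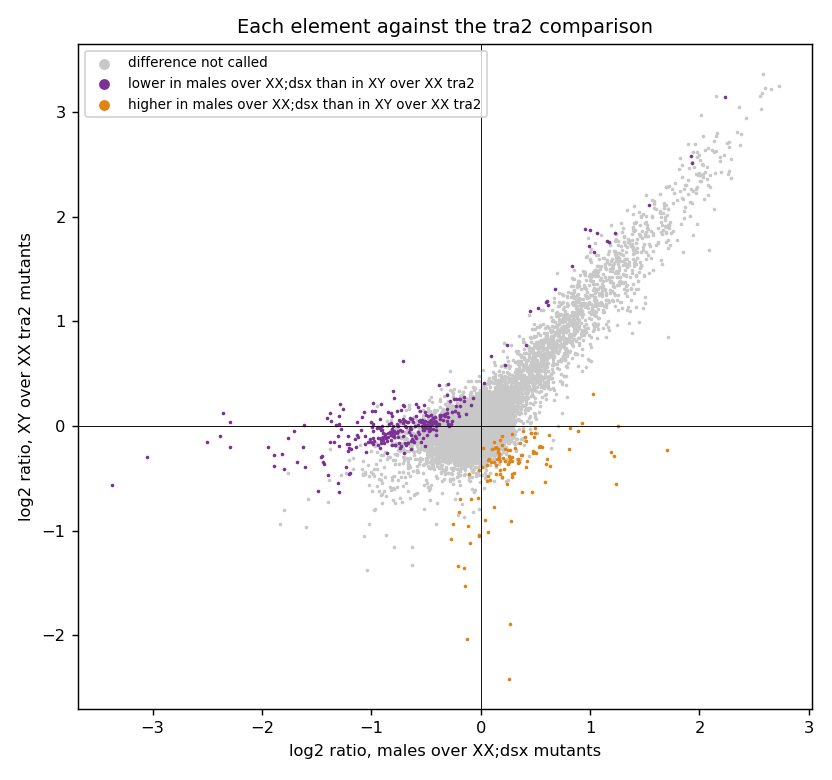
Each point is an element, with its log2 ratio of males over XX;dsx mutants (horizontal) against its log2 ratio of XY over XX tra2 mutants (vertical), coloured where the contrast of both was called. The 285 purple points lie mostly left of zero near a vertical value of zero, and the 110 orange points lie below the cloud.

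Males and XX;dsx mutants differ in their number of X chromosomes, so calls were also counted by chromosome, as a description without a test. Of 1409 X-linked genes, 12.7% were higher in the mutants and 13.6% in males, with a median log2 ratio of -0.02. Of 7293 autosomal genes, 12.3% were higher in the mutants and 18.4% in males, with a median of 0.00089. Without array 14a, 7.47% of X-linked and 7.58% of autosomal genes were higher in the mutants. At least 2-fold higher values in males were called for 2.06% of X-linked and 5.51% of autosomal genes. Over all genes, 0.785% were at least 2-fold higher in the mutants and 4.82% in males. Among genes at least 2-fold higher in testis, 91.1% of 135 X-linked and 90.3% of 1021 autosomal genes were higher in males. On the fourth chromosome, 7 of 50 genes were higher in the mutants and 1 in males.

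**Figure D5:**
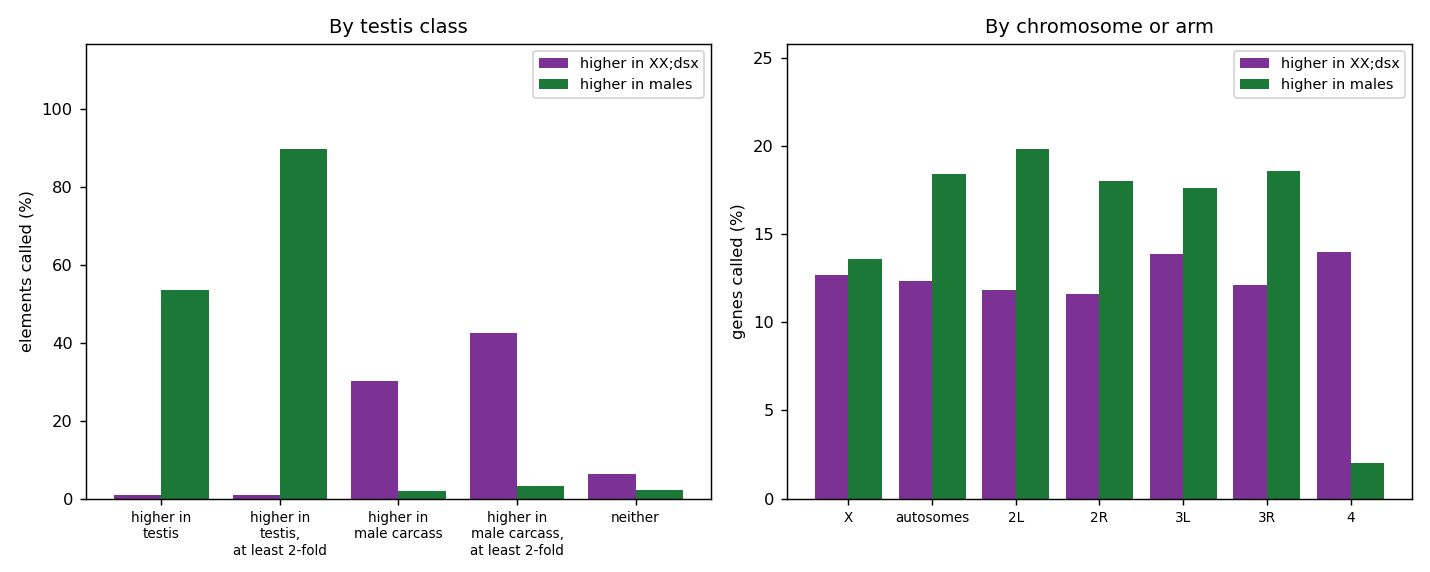
Share of elements called by their class in testis against male carcass (left) and share of genes called by chromosome or arm (right), with purple bars for higher in XX;dsx and green bars for higher in males. The green bar reaches 89.8% for elements at least 2-fold higher in testis, and on the X it stands at 13.6% against 18.4% on the autosomes.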

How the data were processed

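Poly(A) RNA of whole flies (200 ng) was labelled with Cy3 or Cy5 and hybridised to slides scanned on a GenePix 4000A, per the labels' protocols. Per array, the authors deposited log ratios of its channels, taken here as log2. No base is named, and with another base every fold and fold threshold would change but not the calls. Background correction, normalization and the handling of missing values are steps not given in the sources used here. Duplicate spots were averaged, each array was centred on its median, and all 46 arrays were fitted with limma 3.58.1 in R 4.3.3: 1 coefficient per comparison, a dye coefficient per element, and the hybridisation number as a random block (correlation -0.0875). This correlation is negative, so the block narrows the SEs for repeats of 1 hybridisation number instead of widening them. The reported fit is therefore less strict than one with arrays taken as independent. The fit called 3381 elements, against 3076 with arrays taken as independent and 2483 with repeats averaged. On 2 other arrays, 9626 values that ran opposite to their repeats were left out. An element was tested with at least 2 of the 4 arrays and called where the adjusted p (Benjamini-Hochberg) was below 0.05. On simulated data for this comparison (12633 elements), 63% of changes of 0.5 and 97% of changes of 1 on the log2 scale were recovered. The simulated noise was independent between arrays, and 100 elements were changed at each size, against 3381 called in the data. These shares may therefore not hold for the real arrays. A gene was read from its element with values on most arrays. Chromosomes came from the RefSeq Release 6 gene table. The number of arrays limits the precision. SEs rest on a residual variance pooled over all comparisons.

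The comparison and the 29 gene lists were chosen with earlier results of these data known. Named genes are the 12 largest named and 3 largest CG-numbered called genes a side, up to 4 called members of a list, a fixed list, and the 5 largest differences a side from the tra2 comparison. Other list members are named where a count, a paralog pair or an exception calls for them, and were chosen after their values were seen. Alternatives were scaling, centring, block, dye, filters, arrays left out and a fold threshold, and, added after seeing the data, averaging repeats and leaving out each tra2 array.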

Additional observations from a re-analysis of the deposited data

Results flagged for a closer look

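Of 111 named genes measured on all 4 arrays, 3 had an array far from the others in males over XX;dsx mutants, where chance flags about 1 in 20. The log2 ratio of rux was 0.816 on array 14a, against 0.28 to 0.35 on the others. That of betaTub85D was 1.49 on array 14b, against 2.04 to 2.12. That of COX4L was 1.61 on array 14a, against 1.31 to 1.36.

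Of 114 named genes with a tested contrast, 35 had a log2 ratio of males over XX;dsx mutants that differed from that of XY over XX tra2 mutants, by limma. The genes named for such a difference were chosen by it. The contrast was below zero, which is lower in males over XX;dsx, for 30 genes, with these log2 differences: tobi (-2.81), CG7214 (-2.76), Cpr92F (-2.48), CG7203 (-2.32), Vajk2 (-2.29), Vajk3 (-2.09), Mlc2 (-1.66), Nplp3 (-1.64), fln (-1.62), Vajk4 (-1.55), Act88F (-1.5), Mlc1 (-1.42), Acp65Aa (-1.42), Strn-Mlck (-1.34), Yp3 (-1.33), Cpr76Bd (-1.21), LysE (-1.16), Obp56e (-1.13), Acp76A (-1.12), Cyp28d1 (-1.02), GstE1 (-1.0), Spn28F (-0.996), Cpr100A (-0.969), ATPsynC (-0.924), Mst77F (-0.912), apolpp (-0.84), Spn38F (-0.775), ple (-0.746), e (-0.708) and GstS1 (-0.622). It was above zero for 5 genes: Arr2 (2.16), Arr1 (1.92), Cyp6a2 (1.26), inaD (1.19) and Ggamma30A (1.08).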

How the results depend on the processing

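No result changed sign with a call under any alternative. A count is printed below where it moved by more than 1.5 times, a share where it left the 95% exact binomial interval of the reported share, and a median where it moved by over 1 SD of the 4 arrays. Separate centring of each subarray slide moved none of these. The cause of each move was not tested, except that a fold requirement lowers counts by construction. Fewer arrays lowered some counts and raised others. Spot signal over background is not in these values, so its effect on the precision is not known. Spermatid and sperm genes had 29 calls higher in males when any 1 array was left out, and muscle genes 14 to 15 higher in the mutants. Of 109 named genes with a call, 20 lost it in at least 1 of the 4 fits without an array: 18 without 14a, 12 without 13a, 12 without 14b and 8 without 13b. Those lost without any 1 of the 4 arrays were GstD7, RpS19b, Yp3, inaD, santa-maria and yellow-b. Without a dye coefficient 14 calls were lost, and with repeats averaged 12. The X-linked median turned positive without centring. No paired analysis was possible because every array number belongs to 1 comparison.

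Leaving out each array in turn, 852 to 1185 elements were higher in the mutants. With the arrays of the tra2 comparison also left out in turn, 162 to 327 lower and 63 to 143 higher elements differed from tra2. 7.47% to 9.8% of X-linked genes were called higher in the mutants and 9.19% to 12.6% in males. 7.58% to 10.3% of autosomal genes were called higher in the mutants and 14.1% to 17.4% in males. 40.8% to 51.2% of elements higher in testis were called higher in males. 19% to 25.5% of elements higher in male carcass were called higher in the mutants and 1.15% to 1.59% in males. The oogenesis, pigment, neuronal and control lists had 1 to 2 called higher in the mutants, the somatic gonad list 0 to 2, the photoreceptor list 1 to 3 and the digestive list 12 to 19. The mitochondrial list had 19 to 26 higher in the mutants, the odorant binding list 3 to 5, the vacuolar ATPase list 3 to 4 and the glutathione S-transferase list 2 to 4. The meiosis list had 2 to 4 called higher in males, the proteasome list 5 to 7, the fat body, tubulin and ribosomal lists 1 to 2 and the sex determination, digestive and glutathione S-transferase lists 0 to 1. The photoreceptor list had 0 higher in males, the mitochondrial list 7 to 10 and the cuticle list 1 to 3. Medians were -0.199 to -0.0507 for the sperm storage list, 0.0197 to 0.0712 for the sex determination list, 0.0137 to 0.159 for the dosage compensation list and -0.0834 to 0.00397 for the odorant binding list. Elements higher in the mutants numbered 852 without 14a, and elements lower than in tra2 numbered 162 without 13a and 184 without 14a. Leaving out each array of the tra2 comparison, an alternative chosen after seeing the data, gave 225 to 327 lower and 100 to 143 higher.

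Without a dye coefficient, 891 elements were higher in the mutants. 87 lower and 37 higher elements differed from tra2. 7.31% of X-linked genes were called higher in the mutants and 9.65% in males. 7.5% of autosomal genes were called higher in the mutants and 14.3% in males. 43.1% of elements higher in testis were called higher in males. 19.5% of elements higher in male carcass were called higher in the mutants and 1.19% in males. The oogenesis, somatic gonad, pigment, neuronal and control lists had 1 called higher in the mutants and the photoreceptor, vacuolar ATPase and glutathione S-transferase lists 2. The fat body and ribosomal lists had 1 called higher in males and the sex determination, photoreceptor and digestive lists 0. The list median was -0.175 for the sperm storage list.

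With repeats averaged, an alternative chosen after seeing the data, 965 elements were higher in the mutants. 117 lower and 47 higher elements differed from tra2. 7.32% of X-linked genes were called higher in the mutants and 10.5% in males. 8.22% of autosomal genes were called higher in the mutants and 15.2% in males. 46% of elements higher in testis were called higher in males. 21.3% of elements higher in male carcass were called higher in the mutants and 1.36% in males. The somatic gonad, neuronal and control lists had 1 called higher in the mutants and the photoreceptor and glutathione S-transferase lists 2. The fat body list had 1 called higher in males and the sex determination and photoreceptor lists 0.

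With at least 2-fold required, 94 elements were higher in the mutants and 510 elements were higher in males. 54 lower and 21 higher elements differed from tra2. Through males, 413 higher in the mutants and 299 higher in females elements were called. 0.568% of X-linked genes were called higher in the mutants and 2.06% in males. 0.864% of autosomal genes were called higher in the mutants and 5.51% in males. 0.219% of elements higher in testis were called higher in the mutants and 15.8% in males. 2.17% of elements higher in male carcass were called higher in the mutants and 0.173% in males. The accessory gland and immune lists had 3 called higher in the mutants, the ejaculatory duct, neuronal and P450 lists 1, the eggshell, oogenesis, somatic gonad, pigment, photoreceptor, control, odorant binding, vacuolar ATPase and glutathione S-transferase lists 0 and the fat body list 4. The digestive and mitochondrial lists had 2 higher in the mutants and the cuticle list 6. The meiosis, proteasome, tubulin, ribosomal, odorant binding, vacuolar ATPase and P450 lists had 1 called higher in males, the oogenesis list 2, the replication, fat body, sex determination, photoreceptor, digestive and cuticle lists 0 and the mitochondrial list 4.

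With arrays scaled to 1 median absolute deviation, 473 lower and 171 higher elements differed from tra2. Through males, 1397 higher in the mutants and 1484 higher in females elements were called. 16% of X-linked genes were called higher in the mutants and 15.8% in males. 15.2% of autosomal genes were called higher in the mutants and 21% in males. 60.1% of elements higher in testis were called higher in males. 35.9% of elements higher in male carcass were called higher in the mutants and 2.86% in males. The eggshell list had 2 called higher in the mutants, the neuronal list 4 and the ribosomal list 1. The replication list had 5 called higher in males, the dosage compensation and glutathione S-transferase lists 1 and the P450 list 8. Medians were 1.85 for the sperm list, -1.05 for the ejaculatory duct list, 0.199 for the oogenesis list, -0.212 for the sperm storage list, 0.128 for the dosage compensation list, -1.47 for the muscle list, -0.649 for the digestive list and -0.463 for the mitochondrial list.

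With only the 4 arrays fitted, 15.3% of X-linked genes were called higher in the mutants. 15.3% of autosomal genes were called higher in the mutants and 20.2% in males. 1.57% of elements higher in testis were called higher in the mutants and 57.9% in males. 37.4% of elements higher in male carcass were called higher in the mutants and 3.24% in males. The accessory gland list had 14 called higher in the mutants, the pigment list 5, the ribosomal list 11 and the vacuolar ATPase list 10. The glutathione S-transferase list had 9 higher in the mutants. The accessory gland, dosage compensation, immune and glutathione S-transferase lists had 1 called higher in males, the replication list 5, the photoreceptor list 2 and the digestive list 3. The tubulin list had 4 higher in males and the P450 list 8. The list median was -0.175 for the sperm storage list.

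With independent arrays, 10.9% of autosomal genes were called higher in the mutants and 17.3% in males. 50.9% of elements higher in testis were called higher in males. 27.1% of elements higher in male carcass were called higher in the mutants. The neuronal list had 1 called higher in the mutants. The fat body list had 1 called higher in males and the photoreceptor list 0.

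Without the mixed-sex arrays, 11.3% of autosomal genes were called higher in the mutants. 28.1% of elements higher in male carcass were called higher in the mutants. The neuronal list had 1 called higher in the mutants. The fat body list had 1 called higher in males and the photoreceptor list 0.

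With both duplicate spots required, 19.5% of autosomal genes were called higher in males. Medians were -0.198 for the sperm storage list and 0.144 for the dosage compensation list.

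With all 4 arrays required, 14.6% of X-linked genes were called higher in the mutants. 13.8% of autosomal genes were called higher in the mutants and 20.4% in males. 58.5% of elements higher in testis were called higher in males. 32.4% of elements higher in male carcass were called higher in the mutants. The somatic gonad and pigment lists had 1 called higher in the mutants. The list median was 0.143 for the dosage compensation list.

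Without centring, 10.1% of X-linked genes were called higher in the mutants. 10.1% of autosomal genes were called higher in the mutants. 25.6% of elements higher in male carcass were called higher in the mutants. The photoreceptor list had 2 called higher in the mutants, the neuronal list 1 and the glutathione S-transferase list 3. The dosage compensation list had 1 called higher in males. Medians were 0.00181 for X-linked genes and 0.019 for autosomal genes.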
